A study of Arabidopsis thaliana with 12 samples.

Results

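The salt response of the smeb mutants was set against that of the Col-0 wild type in Arabidopsis thaliana seedlings, gene by gene, from all 12 of the 12 RNA sequencing libraries of the series. For each gene the change with salt in Col-0 was subtracted from the mean change with salt in smeb-1 and smeb-2, and 20251 of 33559 genes reached the expression needed for the test, an FPKM of at least 1 in at least 2 libraries. FPKM is a read count scaled by transcript length and library total. A positive difference means that salt raised the gene more, or lowered it less, in smeb than in Col-0. Genes that differed were then divided by where the difference sat: among untreated seedlings (the control arm) or among salt-treated seedlings (the salt arm). All 12 libraries entered by design and not by their values. The comparison and the gene lists were fixed with earlier results of these data known.

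The seedlings were 12 days old, grown on MS medium, and the background strain of both mutant lines is Col-0. The 6 groups, each of 2 libraries, were wild-type Col-0, smeb-1 and smeb-2 without added salt, and the same 3 lines after 6 h in 200 mM NaCl. The nature of the smeb lesions is not given in the sources used here, and each allele is represented by 1 line. The controls are labelled as untreated for 6 h, but the protocol names 0 or 6 h, so in each line salt and time of day cannot be told apart. A free-text label of the treated samples names Cd where the titles, the treatment label and the column names give salt, and the samples are called salt-treated here. Libraries of a group are told apart by a suffix of 0 or 1, and values are given in that order. Nothing says that the libraries of a group came from separate cultures, so each p-value reflects the spread between libraries, which may be technical.

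SmEb is an Sm protein, a member of the ring of proteins that binds the small nuclear RNAs and forms the core of the spliceosome, which removes introns from pre-mRNA. High salt imposes osmotic and ionic stress on a seedling. Plants answer with abscisic acid, the drought hormone, with proline and other compatible solutes, and with a cut in photosynthesis and growth. A mutant can differ from the wild type in such a response because its untreated state already differs or because its stressed state does, and the contrast alone does not separate these.

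Between 18973 and 19179 genes reached 1 FPKM in each library, and relative depth, read from the steps between low values, spanned 0.821 to 1.74. The Col-0 salt pair differed more than the other pairs, with a median absolute log2 difference of 0.167 between its libraries against 0.0847 to 0.0998 in the other 5 groups. Every difference between smeb and Col-0 in the salt arm rests on that pair. Summed FPKM of the 19 root markers was between 114 and 157 in all groups. That of the 19 shoot and leaf markers was 28300 to 31700 without salt, 11500 to 14300 in Col-0 with salt and 18800 to 21100 in both smeb lines with salt. In each list 2 of the 19 markers were below 1 FPKM in all 12 libraries, and none was at 0 in all 12. In whole seedlings fewer cells of a type and less RNA per cell cannot be told apart, and the part of organ proportions in the results below was not tested.

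The targeted gene SmEb (AT2G18740, chromosome 2, 8123195 to 8125078, plus strand, in the RefSeq annotation of TAIR10.1, as for all positions here) was at 58.9 and 55.1 FPKM in Col-0 without salt and at 73.3 and 76.1 with salt. It was at 27.6 and 26 in smeb-1 without salt and at 23.2 and 22.9 with salt, and at 4.93 and 6.24 in smeb-2 without salt and at 1.92 and 2.04 with salt. All 8 mutant libraries were below all 4 Col-0 libraries, and the lines did not overlap. SmEb RNA thus rose with salt in Col-0 (0.39, adjusted p = 0.00455), and its mean change over both smeb lines was -0.67 on the log2(FPKM + 1) scale (adjusted p = 7.74e-06). Taken by line, the change was -1.14 in smeb-2 (adjusted p = 4.21e-06) and -0.21 in smeb-1, which did not pass (adjusted p = 0.0733). The difference in response was -1.06 ± 0.113 (SE of the fit, 2 libraries a group, adjusted p = 5.98e-04). The near-identical paralog SmEa, which can share reads with SmEb, was between 23.5 and 33.3 FPKM in all libraries and its difference in response was 0.03 ± 0.115 (adjusted p = 0.885). RCD1, the regulator of stress responses named in the series title, was at -0.47 ± 0.135, which missed the threshold (adjusted p = 0.0554) but passed with a weight estimated for each group (adjusted p = 0.0449).

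The response to salt differed between smeb and Col-0 for 2016 genes, 9.96% of those tested, at a Benjamini-Hochberg adjusted p under 0.05 from a limma fit. For 1251 of them (6.18%) the difference was positive and for 765 (3.78%) it was negative, and 498 differed at least 2-fold. Over all 20251 genes the median difference was -0.02. Taken alone, smeb-1 differed from Col-0 for 1726 genes (8.52%; 5.07% higher and 3.45% lower) and smeb-2 for 1186 (5.86%; 4.23% higher and 1.62% lower), and 829 genes passed with the same sign in both lines. Both line contrasts subtract the same Col-0 libraries, so the lines do not agree independently. The count of 2016 depended on the Col-0 libraries: it was 784 without Col-0 control suffix 1, 1068 without Col-0 control suffix 0, 1264 without smeb-2 control suffix 1 and 5000 without Col-0 salt suffix 0. It was 1225 with a weight estimated for each group, where Col-0 salt received 0.343 and the other groups 1 to 1.41.

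Among the 2016 genes, 919 (45.6%) differed between smeb and Col-0 only in the control arm and 680 (33.7%) only in the salt arm. Another 217 (10.8%) differed in both arms with opposite signs, 158 (7.84%) in both arms with the same sign, and 42 (2.08%) in neither arm alone. Over all tested genes, 24.5% differed between smeb and Col-0 in control (11.6% higher and 13% lower in smeb) and 27.7% in salt (12.8% higher and 14.9% lower). Salt itself changed 61.8% of genes in Col-0 (34.1% up and 27.7% down) and 70.6% in smeb (37.4% up and 33.2% down). The smeb response averages both lines, with a median SE of 0.0748 against 0.106 in Col-0, so these shares differ in power. At 2-fold or more 3159 genes changed in Col-0 and 2799 in smeb. Divided by size, with a gene put in an arm when its difference there was at least 2 times that in the other arm, the counts were 921 for the control arm, 633 for the salt arm and 462 shared. With group weights the control arm held 748 genes and the salt arm 257, and of the 919 and 680 genes 528 and 360 were still called. The order of the arms turned without Col-0 salt suffix 0, with 1221 control-arm and 2412 salt-arm genes. The control arm was at 376 and 493 genes without Col-0 control suffix 1 and 0 and at 608 without smeb-2 control suffix 1. The salt arm was at 250 and 383 without Col-0 control suffix 1 and 0, at 433 without Col-0 salt suffix 1, and at 415 and 441 without smeb-2 control suffix 1 and smeb-2 salt suffix 0.

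**Figure D1:**
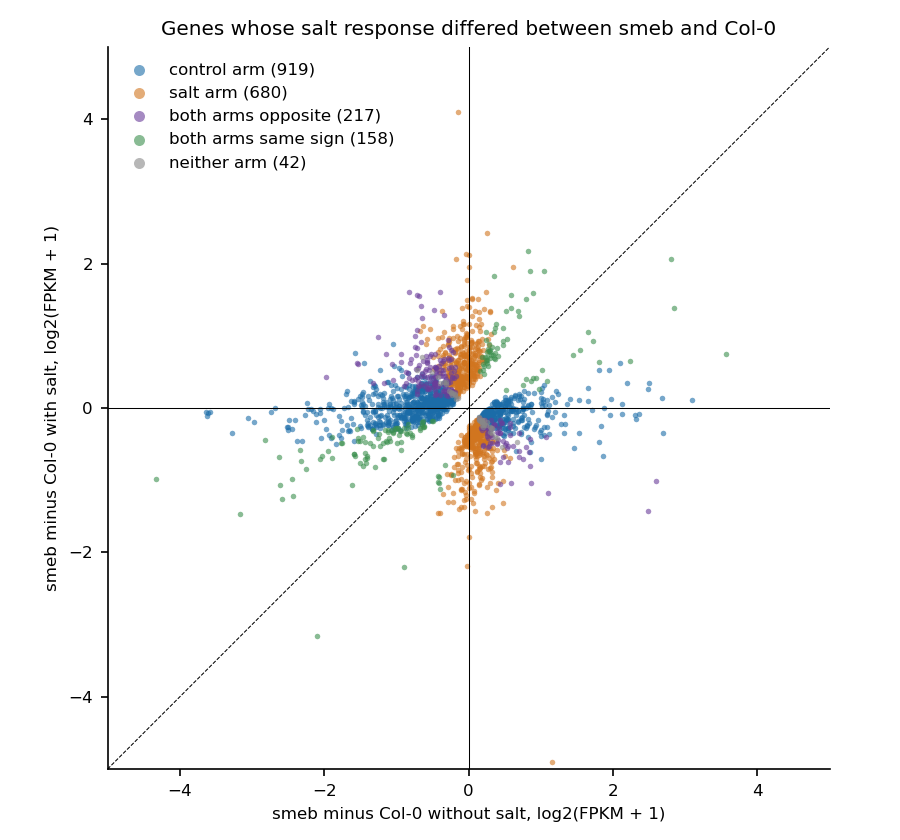
The difference between smeb and Col-0 without salt (x axis) and with salt (y axis), both on the log2(FPKM + 1) scale, for the 2016 genes whose salt response differed, 1 point a gene, coloured by arm. Points on the dashed line would have the same difference in both arms. The 919 control-arm genes spread along the x axis, farther to the left than to the right, and the 680 salt-arm genes along the y axis. The lowest point is AT4G30097, listed at 0 in 9 of 12 libraries, and the highest is U1.5, listed at 0 in both Col-0 salt libraries, and their heights depend on the pseudocount.

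The control arm leaned to one side. In 614 of its 919 genes the response was more positive in smeb, with smeb below Col-0 without salt, by a median of -0.7, and close to it with salt (median 0.04). In these genes salt lowered Col-0 by a median of -0.53 and moved smeb by 0.19. In the other 305 genes smeb was above Col-0 without salt by a median of 0.5 and at -0.08 with salt. The salt arm was even, with 347 genes higher in smeb with salt (median 0.61) and 333 lower (median -0.47). These medians describe the classes, which the same values define.

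By shape of response, 773 of the 2016 genes changed in the same direction in both genotypes but less in smeb, and 446 in the same direction but more in smeb. For 336 the response passed in smeb only and for 298 in Col-0 only, and 163 went opposite ways. The smeb response has the smaller SE, so the counts for smeb only and Col-0 only differ in power. The 347 salt-arm genes with a positive difference held 134 that changed less and 97 that changed more in smeb. Of the 614 control-arm genes with a positive difference, 193 changed less, 140 changed more, 109 passed in Col-0 only and 106 in smeb only.

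Genes of phosphate starvation were lower in untreated smeb. They encode the sensors, transporters, phosphatases and lipid-remodelling enzymes that a plant induces when phosphate runs low, and in Col-0 several were abundant without salt and low with it. Of the 25 list members tested, 19 had a positive difference in response and 0 a negative one, with a median of 1.4. The share called was 76%, against 9.96% of all tested genes. Without salt 20 of the 25 were lower in smeb and 1, PHO2, was higher, and with salt 6 were lower and 1 higher. By arm, 14 of the 19 were control-arm genes, 4 differed in both arms with the same sign and 1, the transporter PHT1;1, was a salt-arm gene. The count of 19 was 20 with median-of-ratios scaling, 19 with quantile normalization and 17 with group weights.

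PS2 (AT1G73010, chromosome 1, 27464528 to 27466348, minus strand), a pyrophosphatase and phosphatase of the haloacid dehalogenase family that is not counted in the list because its symbol has more than 1 match, had the largest control-arm difference among the genes named by rule. It was at 116 and 111 FPKM in Col-0 without salt and at 8.96 and 6.62 with salt. In smeb-1 it was at 7.9 and 9.53 without salt and at 7.8 and 7.62 with salt, and in smeb-2 at 7.08 and 8.47 without salt and at 7.42 and 6.52 with salt. Only the untreated Col-0 pair was high, and the other 10 libraries overlapped. The difference in response was 3.58 ± 0.167 (adjusted p = 1.16e-05), with salt lowering Col-0 by a change of -3.72 (adjusted p = 2.90e-08) and smeb at -0.14 (adjusted p = 0.202).

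SPX3 (AT2G45130, chromosome 2, 18606410 to 18607853, plus strand) encodes an SPX protein that restrains the phosphate starvation response when phosphate is ample. It was at 20.5 and 24.2 FPKM in Col-0 without salt and at 0.331 and 0.295 with salt, and in the 4 untreated smeb libraries at 0.726 to 1.04. With salt smeb-1 was at 0.418 and 0.283 and smeb-2 at 0.137 and 0.0688, so that smeb without salt already lay far below untreated Col-0. Its difference in response was 3.52 ± 0.151 (adjusted p = 1.16e-05). NPC4 (AT3G03530, chromosome 3, 842499 to 845096, minus strand), a phospholipase that frees phosphate from membrane lipids, was at 18.3 and 22.6 FPKM in untreated Col-0 and between 1.9 and 3.27 in the other 10 libraries. Its difference was 2.68 ± 0.165 (adjusted p = 6.26e-05). PEPC1, a phosphatase of phosphocholine and phosphoethanolamine, was at 79.3 and 79.6 in untreated Col-0 and at 2.43 to 4.38 in untreated smeb. After salt it was at 1.79 and 1.71 in Col-0 and at 0.292 to 0.558 in smeb, below Col-0 in both arms. Its difference was 3.34 ± 0.21 (adjusted p = 6.26e-05).

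The 19 differences ranged from 0.36 for PAP12 to 3.54 for PAP14, both acid phosphatases. Between them lay SPX1 at 2.19, MGDC, a galactolipid synthase, at 2.94, SQD2, a sulfolipid synthase, at 1.41, and the transporters PHT1;4 and PHT1;5 at 1.49 and 1.53. PAP17, an acid phosphatase, and RNS1, a secreted ribonuclease, were lower in untreated smeb (-2.37 and -2.25) but were raised by salt in both genotypes. IPS1, the non-coding RNA that sequesters miR399, was at 85.1 FPKM in untreated Col-0 and at 7.9 and 7.83 in untreated smeb-1 and smeb-2 (group means), but its difference in response of 1.84 missed the threshold (adjusted p = 0.0552). PHO1 and PHO2, which act in phosphate loading and in the breakdown of transporters, were both at -0.26 and did not pass.

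The promoters of 3 of these genes are shown because they hold the P1BS element, GNATATNC, which binds PHR1, the main activator of the phosphate starvation response. Each is the 300 bases before the annotated gene start, 5′ to 3′ on the gene's strand, from the RefSeq TAIR10.1 genome, with P1BS matches in capitals. The window of PS2 is chr1:27466349-27466648 (minus strand), that of SPX3 is chr2:18606110-18606409 (plus strand) and that of NPC4 is chr3:845097-845396 (minus strand).
PS2: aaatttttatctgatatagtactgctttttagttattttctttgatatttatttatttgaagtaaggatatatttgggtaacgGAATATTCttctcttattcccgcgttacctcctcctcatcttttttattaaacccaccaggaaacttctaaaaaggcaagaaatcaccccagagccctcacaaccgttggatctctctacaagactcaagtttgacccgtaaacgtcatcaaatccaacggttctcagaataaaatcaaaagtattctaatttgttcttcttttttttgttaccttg
SPX3: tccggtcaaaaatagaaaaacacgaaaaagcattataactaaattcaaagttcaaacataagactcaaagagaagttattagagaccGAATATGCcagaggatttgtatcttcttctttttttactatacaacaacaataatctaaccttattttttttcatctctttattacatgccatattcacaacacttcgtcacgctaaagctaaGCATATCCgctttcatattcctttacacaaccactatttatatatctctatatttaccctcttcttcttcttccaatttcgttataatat
NPC4: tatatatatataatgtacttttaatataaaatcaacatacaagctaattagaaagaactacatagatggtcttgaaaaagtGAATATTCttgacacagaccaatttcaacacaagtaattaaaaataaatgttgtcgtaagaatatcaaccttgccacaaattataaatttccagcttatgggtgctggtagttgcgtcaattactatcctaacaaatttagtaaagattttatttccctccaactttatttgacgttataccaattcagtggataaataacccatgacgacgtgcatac
PS2 and NPC4 hold 1 match each, at 217 and 219 bases before the start, and SPX3 holds 2. Of the 25 phosphate genes, 5 hold the element in this window (20%), and so do 1337 of the 20142 tested genes with a window (6.64%). Among control-arm genes with a positive difference the share was 10.8% (66 of 613), and among those with a negative one 5%. A match is only a match of letters, and nothing here shows that the element is bound.

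Marker genes of abscisic acid and osmotic stress were mostly lower in smeb in both arms, with list medians of -0.55 without salt and -0.66 with salt. Of the 20 tested, 12 were lower and 1 higher in smeb without salt, and 13 were lower and 1 higher with salt. In response 5 had a positive and 1 a negative difference (30%, against 9.96% of all tested genes) and 14 did not pass. The list median of the difference in response was 0 (-0.09 with quantile normalization). The 5 became 8 without Col-0 salt suffix 0, and the 1 became 0 without Col-0 control suffix 1, 4 and 3 without Col-0 salt suffix 0 and 1, and 3 with quantile normalization. RD20 (AT2G33380, chromosome 2, 14144831 to 14146555, minus strand), a caleosin of lipid droplets, was at 53 and 51.9 FPKM in untreated Col-0 and at 6.45, 9.62, 5.22 and 3.43 in the untreated smeb libraries. Under salt it was at 655 and 672 in Col-0, at 461 and 526 in smeb-1 and at 604 and 765 in smeb-2. The untreated groups did not overlap, whereas the salt-treated ones did. Its difference was 2.77 ± 0.232 (adjusted p = 1.80e-04), and it was larger in smeb-2 (3.38) than in smeb-1 (2.16), a gap that did not pass between the lines.

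RD29A, a classic dehydration gene, was at 137 and 111 FPKM in untreated Col-0 and at 16.2 to 24 in untreated smeb, and with salt at 1080 and 1220 in Col-0 and at 445 to 670 in smeb. It stayed lower in smeb in both arms, and its difference of 1.54 ± 0.158 (adjusted p = 4.93e-04) came from the larger gap without salt. RD22 rose with salt in both genotypes and its difference was 1.02 ± 0.131 (adjusted p = 0.00151). HVA22B was the salt-arm member at 1.23 (adjusted p = 0.00605) and KIN1 the negative one at -0.68 (adjusted p = 0.0155). Among 8 clade A PP2C phosphatases, which switch abscisic acid signalling off, 6 were lower in smeb without salt and 6 with salt. In response 1, HAI1, differed (1.64 ± 0.3, adjusted p = 0.00933). The positive count was 2 with a pseudocount of 0.1, and 1 gene was negative with no filter. The share that differed was 12.5% for these phosphatases and 11.1% for abscisic acid receptors, near the 9.96% of all tested genes. Of 9 abscisic acid receptors 1, PYR1, differed, at -0.6 ± 0.107 (adjusted p = 0.00824, 0.0514 without Col-0 control suffix 1). AT3G03341, annotated as a cold-regulated protein, was at 19.3 and 13.3 FPKM in untreated Col-0 against 1 to 3.34 in untreated smeb, and its difference was 2.25 ± 0.298 (adjusted p = 0.00177).

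The list of compatible solutes held genes of proline and of sugars that serve as such solutes, and also the glucosidase BGLU18. Of its 13 tested members 7 were lower in untreated smeb and 2 were higher. The 2 were ProDH and DIN10 (1.83 and 1.01), and the 7 were P5CS1, the galactinol synthases GOLS1, GOLS2 and GOLS3, the raffinose synthase RS5, the proline transporter ProT2 and the glucosidase BGLU18, from -0.31 to -2.63. Of the 13 genes, 6 had a positive and 2 a negative difference (61.5%, against 9.96% of all tested genes). Without Col-0 control suffix 1 these counts were 2 and 1. They were 3 and 1 without Col-0 control suffix 0 or smeb-1 control suffix 0, 3 positive without smeb-2 salt suffix 1, and 1 negative without smeb-2 control suffix 1. P5CS1, the rate-limiting enzyme of proline synthesis, was at 123 and 104 FPKM in untreated Col-0 and at 33.5 to 49.9 in untreated smeb, and with salt at 319 and 283 in Col-0 and at 279 to 353 in smeb. Its difference was 1.51 ± 0.133 (adjusted p = 2.17e-04). ProDH, the enzyme that degrades proline, ran the other way, at 22.5 and 21.1 in untreated Col-0 and 71.4 to 95.7 in untreated smeb. Salt raised ProDH to 49.9 and 64.8 in Col-0 and lowered it to between 36.3 and 55.3 in smeb. Its difference was -2.08 ± 0.224 (adjusted p = 6.35e-04). GOLS2, a galactinol synthase of the raffinose pathway, was at 37.8 and 35 in untreated Col-0 and at 4.22 to 6.19 in untreated smeb, with a difference of 1.95 ± 0.191 (adjusted p = 4.00e-04). Untreated smeb and Col-0 libraries did not overlap for any of these 3 genes.

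Jasmonate genes, which make and transmit the wound hormone, were lower in untreated smeb. Of 24 tested, 17 were lower and 0 higher in smeb without salt, and 4 were higher and 3 lower with salt. The difference in response was positive for 12 and negative for 1 (54.2%, against 9.96% of all tested genes), with a median of 0.78. Without Col-0 control suffix 1 it was positive for 6. AOC1, an allene oxide cyclase of jasmonate synthesis whose close copies can share its reads, was at 81.7 and 82.6 FPKM in untreated Col-0 and at 23.9 to 34.4 in untreated smeb, and with salt at 48.4 and 38.1 in Col-0 and at 65.4 to 66.7 in smeb. Salt thus lowered AOC1 in Col-0 and raised it in smeb, and the difference was 2.15 ± 0.172 (adjusted p = 1.53e-04). OPR3, the reductase of the same pathway, was at 1.23 ± 0.11 (adjusted p = 2.36e-04). MYC2, the transcription factor of the response, was at 1 ± 0.0886 (adjusted p = 2.18e-04). The single negative gene, CYP94B3, inactivates the hormone, and its difference in response was -0.87 (adjusted p = 0.0245), a call lost with a pseudocount of 0.1, with no filter and without 5 of the 12 libraries in turn (both Col-0 controls, Col-0 salt suffix 1, smeb-2 control suffix 0 and smeb-2 salt suffix 0).

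**Figure D2:**
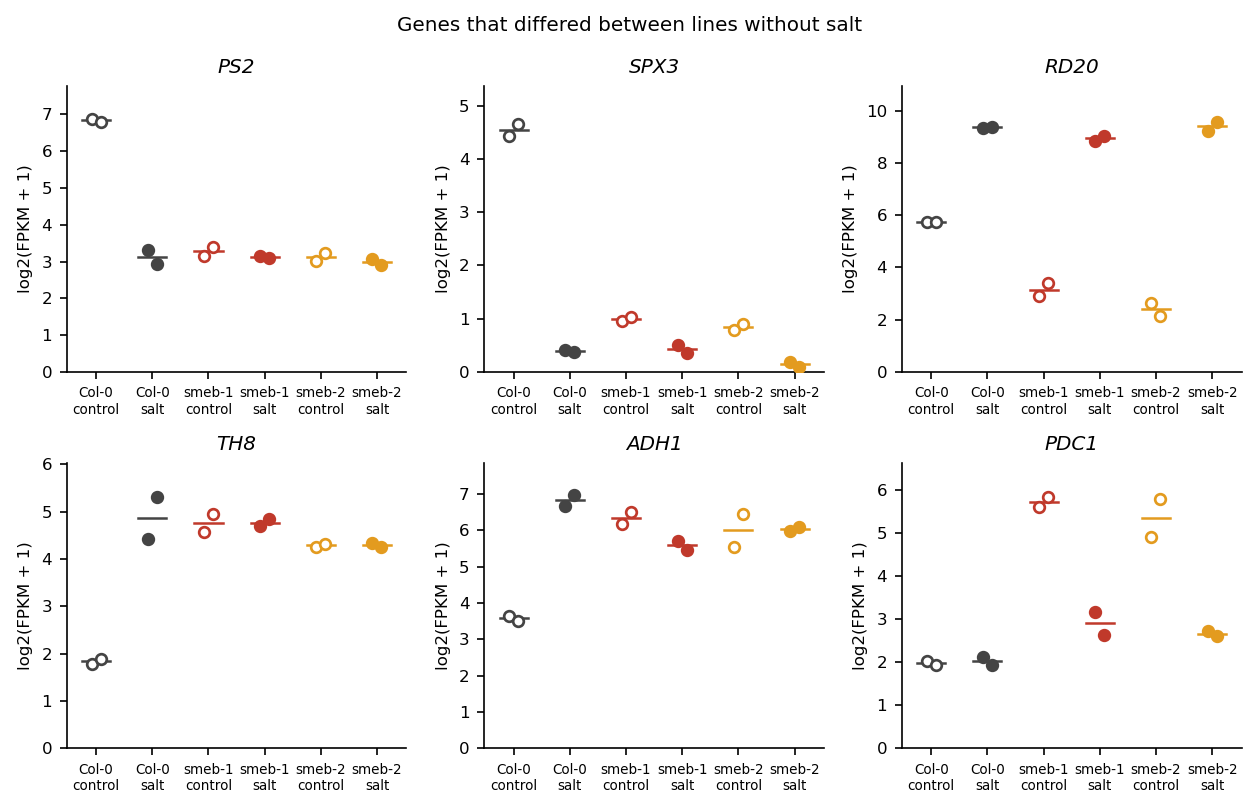
Expression of 6 genes as log2(FPKM + 1) in each library (points, open without salt and filled with salt) with group means (lines), for Col-0, smeb-1 and smeb-2. For PS2, SPX3 and RD20 the untreated Col-0 pair lies above both untreated smeb pairs, and for TH8, ADH1 and PDC1 it lies below them.

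Genes of hypoxia and fermentation were the mirror image: they were high in untreated smeb. They encode the enzymes that keep glycolysis running without oxygen and the regulators that sense oxygen. Of 16 tested, 13 were higher and 0 lower in smeb without salt, with a median of 1.62, whereas with salt 4 were higher and 3 lower. The difference in response was negative for 11 and positive for 0 (68.8%, against 9.96% of all tested genes), with a median of -1.35. That count was 6 with group weights and 5 without Col-0 control suffix 1. In untreated smeb-2 several members differed between the libraries, as the values below show.

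ADH1 (AT1G77120, chromosome 1, 28975255 to 28977417, plus strand), alcohol dehydrogenase, was at 11.6 and 10.3 FPKM in untreated Col-0, at 70.6 and 89.5 in smeb-1 and at 45.6 and 86.4 in smeb-2. In salt it was at 101 and 125 in Col-0, at 51.3 and 43 in smeb-1 and at 61.7 and 67.6 in smeb-2. Col-0 was below smeb without salt and above it with salt, without overlap in either arm, although the difference with salt was not called with group weights (adjusted p = 0.1). ADH1 rose by 3.25 with salt in Col-0 (adjusted p = 2.67e-06), against a change of -0.35 in smeb (adjusted p = 0.0948), a difference of -3.6 ± 0.303 (adjusted p = 1.82e-04).

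PDC1, pyruvate decarboxylase, was at 3.08 and 2.83 in untreated Col-0 and at 47.6, 56.6, 29.2 and 54.3 in untreated smeb. After salt it was at 3.36 and 2.82 in Col-0 and at 5.07 to 8 in smeb, so it fell with salt in smeb but stayed above Col-0, a difference with salt that was not called with group weights (adjusted p = 0.215). Its difference was -2.8 ± 0.309 (adjusted p = 6.94e-04). HB1, a haemoglobin that scavenges nitric oxide, was at 12.3 and 10.7 in untreated Col-0, at 62.5 and 87.8 in smeb-1 and at 38.8 and 75.3 in smeb-2. With salt HB1 was between 3.11 and 8.49 in all 6 libraries, and its difference of -2.44 ± 0.478 (adjusted p = 0.0126) was lost without Col-0 control suffix 1 (0.0638). The sucrose synthase SUS1 was at -1.4, SUS4 at -1.58, the regulators LBD41 and HRE1 at -1.38 and -1.33, and the oxygen-sensing oxidase PCO2 at -1.47. HRE2 and PCO1 were higher in untreated smeb (1.77 and 1.57) but did not differ past the threshold in response (adjusted p = 0.466 and 0.121). RAP2.12, the factor whose stability is set by oxygen, was at -0.18 (adjusted p = 0.257).

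Other genes high in untreated smeb had varied functions. TH8 (AT1G69880), an h-type thioredoxin, was at 2.43 and 2.72 FPKM in untreated Col-0 and at 18.1 to 29.9 in untreated smeb. With salt Col-0 reached 20.6 and 38.8, and the means of smeb-1 and smeb-2 were 26.3 and 18.6. Salt raised TH8 in Col-0 by 3.04 (adjusted p = 2.47e-06), to the level that smeb held under both conditions, and the difference was -3.03 ± 0.28 (adjusted p = 2.68e-04). AT4G33560, annotated as wound-responsive, was at 5.06 and 5.95 in untreated Col-0 and at 26.6 to 56.6 in untreated smeb, and between 3.21 and 11 in all salt-treated libraries. BT5, a BTB and TAZ domain protein, was at 14.2 and 11.4 in untreated Col-0 and at 46.5 to 52.1 in untreated smeb, and salt moved it up in Col-0 (1.04, adjusted p = 0.00704) and down in smeb (-1.49, adjusted p = 5.79e-05).

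SRO5, a relative of RCD1 known from salt and proline responses, was at 2.03 and 2.23 FPKM in untreated Col-0 and at 4.78 to 8.67 in untreated smeb, and with salt at 12.7 and 17.8 in Col-0 and at 11 to 13.4 in smeb. Its difference was -1.66 ± 0.226 (adjusted p = 0.00212). Of the 6 tested members of the RCD1 and SRO family 2 passed, SRO5 and SRO4 (33.3%, against 9.96% of all tested genes). SRO4 was listed at 0 in both Col-0 salt libraries and passed under few of the alternatives. AT2G17850, a rhodanese-like protein, was at 1.23 and 2.16 FPKM in untreated Col-0 and at 16.5 to 24.9 in untreated smeb, and at 0 to 1.05 in all salt-treated libraries (adjusted p = 0.00146, 0.0665 with a pseudocount of 0.1). AT1G12805, annotated as a nucleotide binding protein, was at 2.31 and 1.88 in untreated Col-0 and at 9.38 to 19.8 in untreated smeb, and at 0 to 0.285 with salt (adjusted p = 0.00274).

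In the opposite direction, AT1G08310, an alpha/beta hydrolase, was at 20.4 and 21.3 FPKM in untreated Col-0, at 2.43 to 4.15 in untreated smeb and at 0.55 to 1.53 in all salt-treated libraries, with a difference of 2.23 ± 0.265 (adjusted p = 0.00103). AT5G19110, an aspartyl protease, was at 12 and 10.9 in untreated Col-0 and at 1.12 to 2.18 in untreated smeb. With salt it was at 8.4 and 10.8 in Col-0 and at 14, 4.33, 14.4 and 11.2 in smeb, and its difference of 2.31 (adjusted p = 0.0126) was lost without either Col-0 control library (0.0534 without suffix 0 and 0.0528 without suffix 1). The ferritin FER1, an iron store, was at 454 and 541 in untreated Col-0 and at 161 to 233 in untreated smeb, and salt lowered it in Col-0 and raised it in smeb, with a difference of 1.14 ± 0.102 (adjusted p = 2.36e-04). FER1, FER4 and the transporter YSL1 were the 3 called members of 14 tested iron genes (21.4%, against 9.96% of all tested genes). The call of YSL1 was lost without Col-0 control suffix 1 (0.0679).

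Photosynthesis genes stood out with salt. Salt lowered the light-harvesting antenna of both genotypes steeply, and less so in smeb. Of 26 genes of antenna and core proteins, 23 had a positive difference in response and 0 a negative one, with a median of 0.82. The share called was 88.5%, against 9.96% of all tested genes. With salt 25 were higher in smeb and 0 lower, and without salt 1 was higher and 8 lower. By arm, 15 were salt-arm genes and 8 differed in both arms with opposite signs. The count of 23 held with median-of-ratios scaling and with group weights, and was 21 with quantile normalization. The LHCB1 copies are near-identical, as are the LHCB2 copies, so the division of reads among them is uncertain. Summed FPKM of the shoot and leaf markers, given above, moved in the same way. That list shares LHCB1.3 and RBCS1A with this one, so its sum is not independent of these genes. Of its 17 tested members 1, LHCB1.3, differed in response (5.88%, against 9.96% of all tested genes).

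LHCB2.1 (AT2G05100, chromosome 2, 1822990 to 1824480, minus strand), an antenna protein of photosystem II, was at 1940 and 1880 FPKM in untreated Col-0, at 991 and 1110 in smeb-1 and at 1180 and 1050 in smeb-2. With salt it was at 17.9 and 14.9 in Col-0, at 61 and 60.4 in smeb-1 and at 45.6 and 43.4 in smeb-2. smeb was below Col-0 without salt and above it with salt, without overlap in either arm. Salt changed LHCB2.1 by -6.78 in Col-0 and by -4.35 in smeb, a difference of 2.43 ± 0.114 (adjusted p = 1.16e-05).

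LHCB3 was at 4700 and 4920 in untreated Col-0 and at 3470 to 3900 in untreated smeb, and with salt at 37.4 and 33.7 in Col-0, at 135 and 136 in smeb-1 and at 95.9 and 84.9 in smeb-2. Its difference was 2.02 ± 0.0975 (adjusted p = 1.17e-05), and that of LHCB4.2 was 1.84 ± 0.099 (adjusted p = 2.54e-05). In the core, PSAD-1, PSAF and PSAL of photosystem I were at 0.84, 0.8 and 0.82, PSBO1 of the oxygen-evolving complex at 0.56, and the plastocyanins PETE1 and PETE2 at 0.91 and 0.63. The Rubisco small subunit RBCS1A was at 0.18 (adjusted p = 0.442) and LHCA1 at 0.29 (adjusted p = 0.341). Rubisco activase RCA was at 0.68 (adjusted p = 0.00175).

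Chlorophyll synthesis genes were higher in smeb with salt in 11 of 13 cases and lower in 0. Their difference in response was positive for 8 and negative for 0 (61.5%, against 9.96% of all tested genes), with a median of 0.68. HEMA1, which makes the first committed precursor, was at 135 and 139 FPKM in untreated Col-0 and at 87.2 to 110 in untreated smeb, and with salt at 72.9 and 66.9 in Col-0 and at 102 to 142 in smeb. Salt thus lowered HEMA1 in Col-0 and raised it slightly in smeb (0.26, adjusted p = 9.82e-04), and its difference was 1.22 ± 0.0866 (adjusted p = 9.92e-05). GUN4, which activates magnesium chelatase, was at 1.27 ± 0.111 (adjusted p = 2.17e-04), the chelatase subunit GUN5 at 1.02, and the reductase PORB at 1.05 ± 0.0948 (adjusted p = 2.48e-04). The members that did not pass were the other chelatase subunits CHLI1 and CHLD at -0.1 and 0.06, GSA1 at -0.08, PORC at 0.24 and CHLG at 0.

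**Figure D3:**
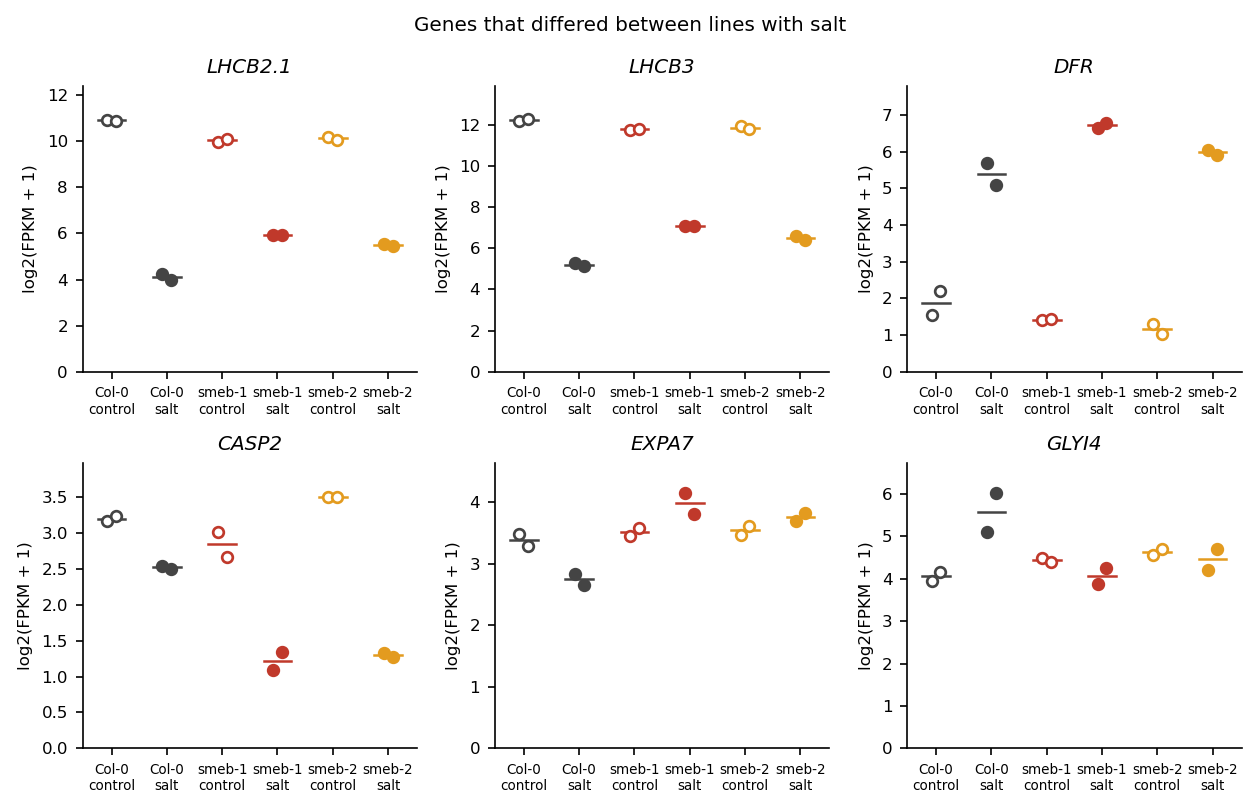
Expression of 6 genes as log2(FPKM + 1) in each library (points, open without salt and filled with salt) with group means (lines), for Col-0, smeb-1 and smeb-2. With salt both smeb pairs lie above the Col-0 pair for LHCB2.1, LHCB3, DFR and EXPA7 and below it for CASP2 and GLYI4.

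Of 15 flavonoid and anthocyanin genes, 12 were higher in smeb with salt and 0 lower, and 6 were higher and 0 lower without salt. In response 5 had a positive and 1 a negative difference (40%, against 9.96% of all tested genes) and 9 did not pass. The median difference was 0.4, although the median salt response of the list was lower in smeb (2.06) than in Col-0 (2.53). The negative gene, the light-signalling factor HY5, was at -0.63 (adjusted p = 0.0364) and was lost under 11 alternatives. The 5 became 1 without Col-0 control suffix 1, 2 without Col-0 control suffix 0, 2 with no filter and 3 with a pseudocount of 0.1, quantile normalization or group weights, and 2 to 3 without each of 9 other libraries. DFR (AT5G42800, chromosome 5, 17164093 to 17166032, minus strand), the reductase that commits flavonoids to anthocyanin, was at 1.93 and 3.58 FPKM in untreated Col-0 and at 1.03 to 1.69 in untreated smeb. With salt it was at 50.5 and 33.3 in Col-0, at 99.7 and 110 in smeb-1 and at 65.2 and 59.4 in smeb-2, all 4 smeb libraries above both Col-0 libraries. Its difference was 1.54 ± 0.271 (adjusted p = 0.00784). With group weights DFR passed in control (adjusted p = 0.0166) and not in salt (adjusted p = 0.0543). LDOX, the next enzyme, was at 1.16 ± 0.213 (adjusted p = 0.0095, 0.0564 without Col-0 control suffix 1). The early enzymes CHS, F3H and FLS1 were higher in smeb in both arms and their differences in response were -0.89, -0.11 and -0.14, none past the threshold.

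In the root, 3 genes of the Casparian strip, the lignin barrier of the endodermis, were lower in smeb than in Col-0 with salt, while the root hair expansins EXPA7 and EXPA18 were higher. CASP2 (AT3G11550, chromosome 3, 3638178 to 3639348, plus strand) was at 7.99 and 8.38 FPKM in untreated Col-0, at 7.09 and 5.33 in smeb-1 and at 10.3 and 10.3 in smeb-2. With salt it was at 4.82 and 4.66 in Col-0, at 1.12 and 1.53 in smeb-1 and at 1.52 and 1.42 in smeb-2, without overlap. Its difference was -1.23 ± 0.154 (adjusted p = 0.00138). CASP1 was at -1.04 ± 0.165 (adjusted p = 0.00456) and CASP5 at -0.88 (adjusted p = 0.0227), whereas CASP4, at -0.75, and MYB36, the factor that turns CASP genes on, at 0.14, did not pass. The differences in response of EXPA7 and EXPA18 were 0.97 ± 0.156 (adjusted p = 0.00493) and 1.35 (adjusted p = 0.017). The other root hair genes of the list, COBL9 and RHD6, were at 0.34 and 0.16 and did not pass (adjusted p = 0.311 and 0.681). EXPA7 was at 6.15 and 5.29 in Col-0 with salt and at 11.9 to 16.7 in smeb with salt, and between 8.73 and 11.2 in all untreated libraries. Of 17 root markers tested 3 had a positive and 3 a negative difference (35.3%, against 9.96% of all tested genes). SCR, a factor of endodermal identity, was the third positive one at 0.34.

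The other salt-arm genes with a positive difference that were named by size were IDL1, AT2G38823, CSLA01, AT3G13437 and U1.5. IDL1, an IDA-like peptide, was between 0.359 and 0.944 FPKM in all untreated libraries, at 4.88 and 2.82 in Col-0 with salt and at 15.3 to 24.4 in smeb with salt (2.23 ± 0.254, adjusted p = 8.62e-04). AT2G38823, an uncharacterized protein, rose to 1.96 and 3.55 in Col-0 and to 11.3 to 20.6 in smeb (2.18 ± 0.223, adjusted p = 4.93e-04). CSLA01, a cellulose synthase-like enzyme, was listed at 0 to 0.0593 without salt, at 12.9 and 6.68 in Col-0 with salt and at 26.4 to 42.8 in smeb with salt (adjusted p = 0.00325). AT3G13437, also uncharacterized, was at 2.24 and 0.654 in Col-0 with salt and at 3.36 to 4.68 in smeb with salt (1.76 ± 0.305, adjusted p = 0.00704), and with group weights it passed in control as well (adjusted p = 0.00465). U1.5, 1 of the near-identical gene copies of the U1 small nuclear RNA, was listed at 0 in both Col-0 salt libraries and at 9.61 to 27.1 in smeb with salt, but between 16.2 and 98.4 without salt. Its call (adjusted p = 0.0107) was lost with group weights (0.0541).

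The salt-arm genes with a negative difference that were named by size included GLYI4 and the glucosyltransferases UGT73B3 and UGT89B1. GLYI4, annotated in the glyoxalase I family, was at 14.5 and 17 FPKM in untreated Col-0 and at 20 to 25.1 in untreated smeb, and with salt at 33.5 and 64.1 in Col-0 and at 13.6 to 25.2 in smeb. Salt raised GLYI4 in Col-0 and its change in smeb did not pass, and the difference was -1.78 ± 0.324 (adjusted p = 0.009). UGT73B3 and UGT89B1 reached 21.5 and 35.4 and 19 and 31.2 in Col-0 with salt, against 12.3 to 18.1 and 12.4 to 15.4 in smeb with salt. Their differences were -1.21 ± 0.225 (adjusted p = 0.0099) and -1.13 ± 0.228 (adjusted p = 0.0145, 0.0701 without Col-0 control suffix 1). For these 3 genes the library Col-0 salt suffix 1 was the higher of its pair. With group weights all 3 passed in control as well as in salt, where the control adjusted p was 0.0372 for GLYI4, 0.0322 for UGT73B3 and 0.0448 for UGT89B1. AT1G76590, a PLATZ transcription factor, was at 34.1 and 41.8 in Col-0 with salt and at 15.2 to 21.4 in smeb with salt (-1.22 ± 0.123, adjusted p = 4.52e-04). AT5G62360, an inhibitor of invertase or pectin methylesterase, was at 14.2 and 24.5 in Col-0 with salt and at 5.23 to 7.81 in smeb with salt (-1.51 ± 0.242, adjusted p = 0.00472).

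Most ribosome biogenesis and nitrate genes were lower in smeb with salt. Without salt 2 of the 12 ribosome biogenesis genes and 4 of the 10 nitrate genes were higher in smeb and 0 lower. Of 12 ribosome biogenesis genes, 11 were lower and 1, NUC-L2, higher in smeb with salt. The response difference was negative for 6 (50%, against 9.96% of all tested genes), with a median of -0.38. The count of 6 was 3 with group weights and 2 without Col-0 control suffix 1. It was 3 without each of 4 smeb libraries (smeb-1 control suffix 0, smeb-1 salt suffix 0, smeb-2 control suffix 1 and smeb-2 salt suffix 1). It was 10 without Col-0 salt suffix 0. NOP56, a box C/D ribonucleoprotein, was at 90 and 95.8 FPKM in Col-0 with salt and at 72.6 to 85.3 in smeb with salt, with a difference of -0.57 ± 0.097 (adjusted p = 0.00637). The rRNA methylase FIB2 was at -0.65 ± 0.114 (adjusted p = 0.00741). Of 10 nitrate genes, 6 were lower and 1 higher in smeb with salt. In response 4 had a negative and 0 a positive difference (40%, against 9.96% of all tested genes). The 4 were the reductases NIA1 (-1.34, adjusted p = 0.0189, 0.0981 without Col-0 control suffix 1) and NIR1 (-0.6, adjusted p = 0.00388), the transporter NRT1.8 (-0.97, adjusted p = 0.0317) and the sirohaem enzyme UPM1 (-0.89, adjusted p = 9.21e-04). NIA1 was at 55.6 and 103 in Col-0 with salt, a wide pair, and at 27.5 to 43.7 in smeb with salt. NIR1 and UPM1 differed in both arms, higher in smeb without salt and lower with it. With group weights the difference with salt was not called for NOP56 (adjusted p = 0.192) or NIR1 (0.0844). It was called for FIB2 (0.0464), NIA1 (0.0204) and UPM1 (0.0162).

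**Figure D4:**
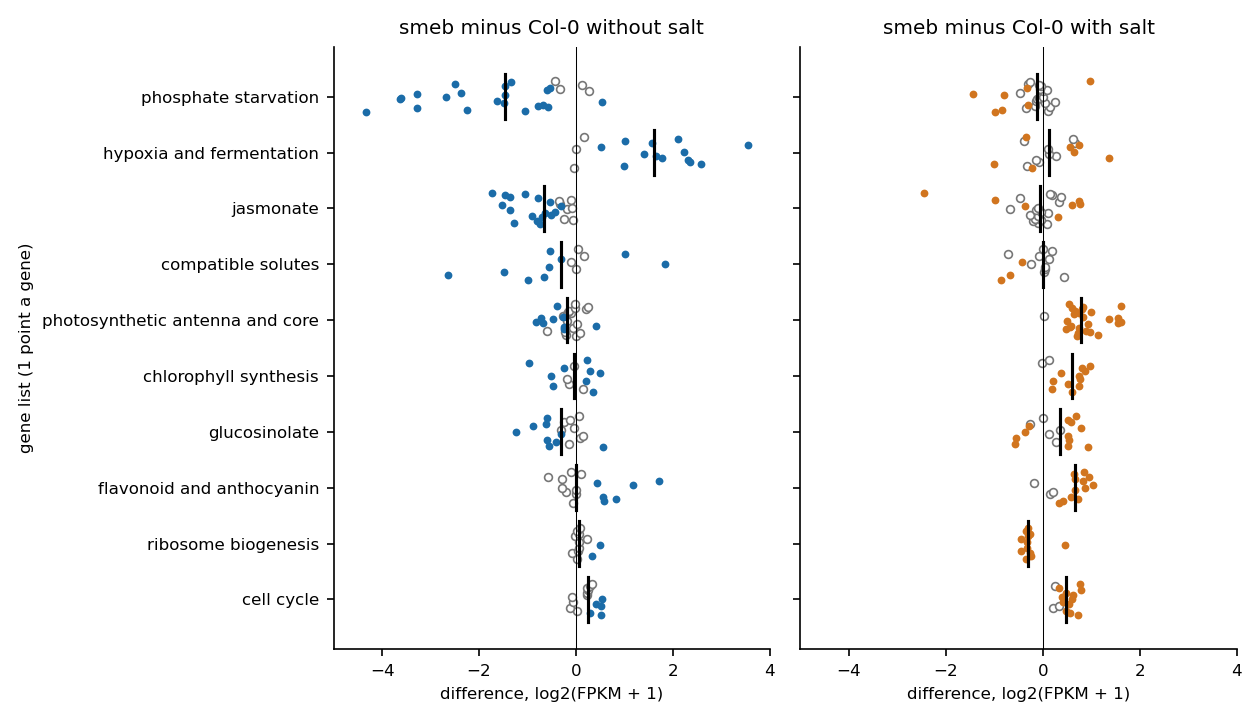
Differences between smeb and Col-0 without salt (left) and with salt (right) on the log2(FPKM + 1) scale for the tested genes of 10 lists, 1 point a gene, filled where the adjusted p was under 0.05, with the list median as a bar. The medians of phosphate, jasmonate and hypoxia genes are -1.46, -0.66 and 1.62 without salt and -0.11, -0.06 and 0.12 with salt, and that of photosynthetic genes is -0.18 without salt and 0.78 with salt.

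Glucosinolate genes, which make the defence thioglucosides of Brassicaceae, differed in response in 13 of 17, all positive (76.5%, against 9.96% of all tested genes). The list median was 0.61. In control 8 were lower and 1 higher in smeb, and with salt 8 were higher and 4 lower. The count of 13 fell to 2 without Col-0 control suffix 1 and to 7 without Col-0 control suffix 0, was 7 with no filter, and was 6 to 8 without each of 7 smeb libraries. CYP79B3, of the indolic branch, was lower in smeb in both arms (salt adjusted p = 0.0176, 0.111 with group weights), at 37.3 and 32.9 FPKM in untreated Col-0 against 13 to 16.1 in untreated smeb, with a difference of 0.89 ± 0.128 (adjusted p = 0.00296). CYP79F1, of the aliphatic branch, was lower in smeb without salt and higher with it (salt adjusted p = 0.025, 0.0858 with group weights), with a difference of 1.07 ± 0.203 (adjusted p = 0.0107), lost without Col-0 control suffix 1 (0.0633).

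Of the 217 genes that differed in both arms with opposite signs, 208 were still called with group weights and 80 kept that class. AT4G39675, an uncharacterized protein, was at 14.6 and 14 FPKM in untreated Col-0 and at 63.2 to 107 in untreated smeb, and with salt at 5.59 and 5.83 in Col-0 and at 0.991 to 2.41 in smeb. Salt lowered it in both genotypes and further in smeb, with a difference of -3.9 ± 0.245 (adjusted p = 6.26e-05). AT1G65490, also uncharacterized, was at 48.4 and 54.3 in untreated Col-0 and at 9.26 to 16.8 in untreated smeb, and with salt at 90.6 and 98.9 in Col-0 and at 102 to 154 in smeb (2.41 ± 0.202, adjusted p = 1.80e-04). With group weights AT1G65490 no longer differed past the threshold with salt (adjusted p = 0.281). The auxin-responsive SAUR-like gene AT5G18030 was at 11.4 and 13.2 in untreated Col-0 and fell to 2.18 and 1.08 with salt, whereas smeb was at 3.59 to 5.65 under both conditions (2.24 ± 0.24, adjusted p = 6.07e-04). Another SAUR-like gene, AT5G50760, was at -1.9 ± 0.29 (adjusted p = 0.00384), and AT1G22470, uncharacterized, at -1.63 ± 0.147 (adjusted p = 2.41e-04).

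Clock genes, whose levels follow the time of day, differed in 12 of 19 cases (63.2%, against 9.96% of all tested genes). Of these, 7 were positive and 5 negative, and the list median was 0.03 (-0.01 with quantile normalization). Without Col-0 control suffix 0 these counts were 4 and 3, and without Col-0 control suffix 1 the 7 became 3. The 5 became 3 without smeb-1 control suffix 0, either smeb-2 control library or smeb-2 salt suffix 1. The 5 negative genes were the evening-phased TOC1, LUX, ELF3 and ELF4 and PRR3. LNK2 was at 44.4 and 42.7 FPKM in untreated Col-0 and at 16.6 to 19.8 in untreated smeb, and between 2.93 and 3.96 in all salt-treated libraries (1.12 ± 0.112, adjusted p = 4.50e-04). TOC1 was at 46.4 and 46.2 in untreated Col-0 and at 58.9 to 67.3 in untreated smeb, and at 40.8 and 43.4 in Col-0 and 34.5 to 37.6 in smeb with salt (-0.66 ± 0.0831, adjusted p = 0.00145). The labels word the times of all 3 lines alike. Whether a shift in clock phase has a part in the other results was not tested.

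Mitochondrial retrograde genes signal impaired respiration and are known targets of the pathway that RCD1 restrains. Of the 18 tested, 33.3% differed in response, against 9.96% of all tested genes. By arm, 3 of those called were control-arm genes and 1 was a salt-arm gene. With salt 8 of the 18 were higher in smeb and 0 lower, against 12.8% and 14.9% of all tested genes. Without salt 3 of the list genes were higher in smeb and 6 lower. Their response difference was positive for 6 and negative for 0, with a median of 0.55, and the 6 became 3 with group weights and 2 without Col-0 control suffix 1, and 2 were negative without Col-0 salt suffix 0. AOX1A, the alternative oxidase, was at 45.5 and 44.6 FPKM in untreated Col-0 and at 32.5 to 38 in untreated smeb, and with salt at 114 and 128 in Col-0, at 165 and 176 in smeb-1 and at 207 and 221 in smeb-2. It crossed over without overlap in either arm, with a difference of 1.01 ± 0.103 (adjusted p = 4.93e-04). NDB4, an alternative NADH dehydrogenase, was low (0.167 and 0.0878 in untreated Col-0, 6.08 to 7.72 in smeb with salt) and higher in smeb in both arms, and its call was lost with a pseudocount of 0.1.

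Of 20 ion transport genes, which move sodium, potassium, calcium and protons across membranes, 6 differed in response (30%, against 9.96% of all tested genes). The difference was positive for 1 and negative for 5, and the negative count was 2 with group weights. The sodium exporter SOS1 and its regulators SOS2 and SOS3 were at -0.15, -0.2 and 0.03 (adjusted p = 0.385, 0.382 and 0.941), and the sodium transporter HKT1 at -0.06 (adjusted p = 0.826). CAX1, a vacuolar calcium exchanger, was at 155 and 172 FPKM in untreated Col-0 and at 199 to 260 in untreated smeb, and with salt at 287 and 375 in Col-0 and at 172 to 234 in smeb. Salt raised CAX1 in Col-0 (1, adjusted p = 6.30e-05) while its change in smeb was -0.19, a difference of -1.19 ± 0.149 (adjusted p = 0.00143). The proton pump AHA2 was at -0.72 ± 0.117 (adjusted p = 0.00531). The vacuolar sodium exchanger NHX1, at 100 and 104 in Col-0 with salt and 70.5 to 89.7 in smeb with salt, was at -0.43 ± 0.0959 (adjusted p = 0.0218). The call of NHX1 was lost with group weights (0.0641), without either Col-0 control library (0.0788 and 0.0865) and without smeb-1 control suffix 0 (0.0531).

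In the remaining stress and hormone lists between 9.09% and 33.3% of the tested genes differed, against 9.96% of all. By list, the share was 33.3% for CBF and DREB factors, 27.8% for WRKY factors, 23.8% for reactive oxygen, 22.2% for ethylene, 20% for heat shock, 15.4% for sulfate, 11.8% for salicylate and 9.09% for senescence. Of 18 WRKY factors 3 were positive and 2 negative, with WRKY11 at 0.82 ± 0.0804 (adjusted p = 4.00e-04), and WRKY25 and WRKY53 were at 1.25 and 1.06. The 22 auxin genes gave 4 positive, with IAA29 at 1.69 (adjusted p = 0.00581) and IAA19 at 0.97 (adjusted p = 0.00395). The 18 ethylene genes gave 3 positive and 1 negative, and the 3 were the synthesis enzymes ACS7, ACS8 and ACS11 at 1.01, 1.02 and 1.02. The 21 genes of reactive oxygen scavenging gave 3 and 2, with MDHAR at 1.63 (adjusted p = 0.00425). The 15 heat shock genes gave 1 positive, HSP18.2 at 1.43 (adjusted p = 0.00373), and 2 negative, HSP70 at -0.72 and HSP90.1 at -0.67, the latter lost with group weights (0.0582) and without Col-0 control suffix 0 (0.0788). Of 9 CBF and DREB factors 2 were positive and DREB2C was negative at -1.47, a call lost without either Col-0 control library (0.0553 and 0.0536). Of 13 sulfate genes 2 were positive, with BGLU28, a myrosinase-type glucosidase of sulfur starvation, at 2.07 ± 0.218 (adjusted p = 5.56e-04). Of 17 salicylate genes 2 were positive, SARD1 at 1 and EDS1 at 0.47. SARD1 was lost without Col-0 control suffix 1 (0.0609), and EDS1 was lost under 7 alternatives, among them group weights (0.0821) and leaving out either Col-0 control library (0.077 and 0.114). Of 11 senescence genes 1 was positive, WRKY53.

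Genes of the splicing machinery, the cell cycle and flowering were called in 0% to 8.7% of cases, and those of the cell wall in 20%, against 9.96% of all tested genes. Of 23 Sm and LSm proteins 2 differed, SmEb and LSM2 (-0.39, adjusted p = 0.0403), and LSM2 passed under few of the alternatives. None of 20 SR splicing factors was called by limma, and RS31, the nearest, was at 0.36 (adjusted p = 0.067), and 1 SR gene passed with median-of-ratios scaling and 1 with quantile normalization. None of 15 cell cycle genes was called either (CDKB2;1 at 0.48, adjusted p = 0.0591). Of these 15, 12 were higher in smeb with salt and 5 without, against 12.8% and 11.6% of all tested genes. With group weights the difference of CDKB2;1 with salt was not called (adjusted p = 0.0783). Over all tested genes, the calls with salt fell from 5617 to 1828 with those weights. Of 13 flowering genes 1 differed, SVP at 0.49 (adjusted p = 0.005), and of 20 cell wall genes 2 were positive and 2 negative. Cell wall genes were higher in smeb in 9 cases and lower in 1 without salt, and higher in 8 and lower in 1 with salt. Of all tested genes, 11.6% were higher and 13% lower without salt, and 12.8% higher and 14.9% lower with salt. Of 17 shoot and leaf markers 1 differed, the antenna gene LHCB1.3, at 0.74 ± 0.106, a call lost with no filter (0.0686).

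The mutant lines were also set against each other. The response of smeb-2 differed from that of smeb-1 for 1 gene (0.00494%), with 1818 genes at an unadjusted p under 0.05, and the count was 36 with group weights and 0 to 53 when a library was left out. A gene that misses the threshold is not shown to respond equally: the median SE of this contrast was 0.15. The gene was AT5G46900, a lipid-transfer family protein, at 23.3 and 15.4 FPKM in untreated Col-0, at 1.51 and 1.4 in smeb-1 and at 13.2 and 17 in smeb-2, and between 0 and 0.139 in all salt-treated libraries. The untreated smeb-1 libraries were low and the smeb-2 libraries overlapped Col-0. The difference was -2.68 ± 0.263 (adjusted p = 0.0344), and its size depends on the pseudocount because 3 of the salt-treated libraries were listed at 0.

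In the authors' deposited lists of splicing events, the share of genes with a different salt response lay near that of all tested genes. The list whose columns are headed smeb_Na and Col-0 holds 137 events in 131 genes, all tested, of which 11 differed in salt response (8.4%, against 9.96% of all tested genes), 9 positive and 2 negative. The list headed WT_Na and WT holds 208 events in 199 genes, of which 195 were tested and 19 differed (9.74%), 11 positive and 8 negative. Members with the largest differences were AT5G25440 at 1.25 in the first list, and HOL2 at -1.3 and NUDT7 at 1.26 in the second. The header of the first list does not say whether its Col-0 column was salted, and gene-level FPKM does not separate spliced from unspliced RNA.

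Promoter windows were also searched for other elements. In the 300 bases before the gene start, on either strand, ACGTG (the core of the abscisic acid element, also inside the G-box CACGTG) was present in 26.7% of all tested genes. The share was 37.6% of salt-arm genes with a positive difference, 29.3% of those with a negative one, and 31% and 28.7% of control-arm genes. The G-box was present in 8.14% of all, in 14.5% and 8.16% of the salt-arm genes and in 10.3% and 4.67% of the control-arm genes, positive and negative. TTGAC, the core of the W-box bound by WRKY factors, was present in 50.5% of all. It was in 58.1% and 47.7% of control-arm genes, positive and negative, and in 51.4% and 47.1% of salt-arm genes. CCGAC, the DREB core, was present in 15% of all, in 11.7% and 15.3% of control-arm genes and in 12.7% and 16.9% of salt-arm genes. GCCGCC was present in 2.41% of all, in 0.326% and 2% of control-arm genes and in 2.31% and 3.32% of salt-arm genes. AAAATATCT (evening element) stood at 2.94% and GAANNTTC (heat shock element) at 11.4% of all, with 1.45% to 3.75% and 11.5% to 14.5% in the 4 single-arm sets. These shares carry no test.

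**Figure D5:**
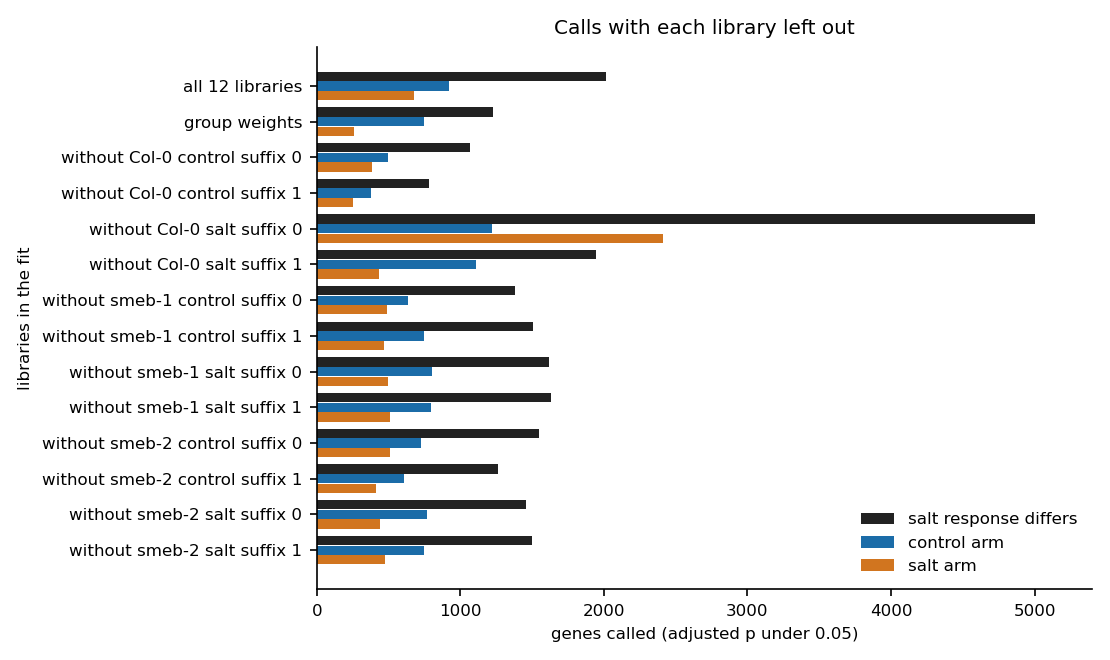
Number of genes called (x axis, adjusted p under 0.05) for the difference in salt response, and among them in the control arm and in the salt arm, with all 12 libraries, with a weight for each group and with each library left out in turn (y axis). Without Col-0 salt suffix 0 the count rises to 5000 and the salt arm to 2412 genes, and without Col-0 control suffix 1 they fall to 784 and 250.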

How the data were processed

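RNA was sequenced from 12 libraries of 3 lines with and without salt. The submitters' processing notes name Trimmomatic 0.32 (a read trimmer), TopHat2 2.0.13 (a spliced aligner) and the TAIR10 build. The authors deposited expression as FPKM per gene. Which tool computed it, with which annotation and strand setting, is not given in the sources used here. They also deposited 2 lists of splicing events with FDR values (p-values adjusted by the authors, up to 0.0496), used only as gene lists. No read totals came with the FPKM values, so absolute depth is unknown, and relative depth was read from the steps between low values. No other sample columns were present (0).

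Differences were fitted with limma 3.58.1 (R 4.3.3) on log2(FPKM + 1), which understates the change of low genes, with 6 group means and 6 residual degrees of freedom. Genes with FPKM of at least 1 in 2 libraries entered, and p-values were adjusted by Benjamini-Hochberg over all 20251. Errors marked ± are standard errors of the fit. A gene counts as called at an adjusted p under 0.05. The fit was also run on simulated data that gave each gene the same spread in all 6 groups. That run therefore does not cover the wider spread of the Col-0 salt pair.

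The comparison and the 34 gene lists (554 entries tested) were chosen with earlier results of these data known. Named genes were SmEb, SmEa and RCD1, then the largest differences of each sign in each arm (mean FPKM of at least 5, both lines called, libraries of that arm not overlapping), and up to 3 called members with the smallest p of each list, so that agreement of the lines and separation are built in. Other list members were named after their values were seen. Promoter windows were the 300 bases before the annotated gene start in TAIR10.1, and 32817 of 33559 gene IDs matched that annotation. Alternatives were a pseudocount of 0.1, no filter, a minimum of 5 FPKM, median-of-ratios scaling, quantile normalization, group weights, a block for column suffix, and leaving out each library.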

Additional observations from a re-analysis of the deposited data

Results flagged for a closer look

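The salt response of smeb differed from that of Col-0 for 2016 genes by a limma test of the difference itself. The salt response of smeb-2 differed from that of smeb-1 for AT5G46900, by -2.68 on the log2(FPKM + 1) scale (limma, adjusted p = 0.0344). That call was for a gene near or at 0 FPKM in all salt-treated libraries, so that it rests on the untreated libraries.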

How the results depend on the processing

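The count of 2016 genes was 1225 with group weights and 498 at 2-fold or more. It was 829 when both lines, which share the Col-0 libraries, had to be called with the same sign. At 2-fold or more the counts were 538 for smeb-1, 465 for smeb-2, 489 for smeb against Col-0 in control, 327 in salt, 3159 for salt in Col-0 and 2799 for salt in smeb. With the 2-fold limit in each arm, 232 genes were in the control arm, 94 in the salt arm, 3 in both with opposite signs, 6 in both with the same sign and 163 in neither, and by response 91 were larger in smeb, 65 smaller, 156 in Col-0 only, 117 in smeb only and 2 opposite. With group weights the counts were 1828 in salt, 257 in the salt arm, 121 and 67 in both arms with opposite and the same sign, and 261 larger, 471 smaller and 134 in Col-0 only. The 1 gene between the smeb lines became 0 with a pseudocount of 0.1, a minimum of 5 FPKM or the block, 10 with no filter and 36 with group weights.

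With 1 library left out, the main count ranged from 784 to 5000, that of smeb-1 from 630 to 4704, of smeb-2 from 454 to 3680 and between the lines from 0 to 53. Differences in control ranged from 2344 to 6536, in salt from 2975 to 7909, with salt in Col-0 from 10466 to 12498 and in smeb from 13154 to 15036. Genes in the control arm ranged from 376 to 1221, in the salt arm from 250 to 2412, in both with opposite signs from 90 to 613, with the same sign from 57 to 609 and in neither from 9 to 145. By response, larger ranged from 178 to 836, smaller from 297 to 1954, Col-0 only from 89 to 779, smeb only from 139 to 993 and opposite from 81 to 427. SmEa, at 0.03, turned to -0.1 without Col-0 control suffix 1 and to -0.07 without Col-0 salt suffix 1, in a range of -0.1 to 0.16 over the libraries left out. The cause of these shifts was not tested. Of 112 named genes, 87 kept direction and side of the threshold without Col-0 control suffix 1, 101 with group weights and 111 with median-of-ratios scaling.

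The replicate block used the column suffix, which is not a replicate number of the labels. Deviations of libraries with the same suffix correlated at -0.125 to 0.112 over the 6 groups, so the suffix does not pair the samples. With the block 1940 genes were called, 865 in the control arm and 661 in the salt arm.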
